A study of Homo sapiens with 30 samples.

Results

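The siANKRD10-2 knockdown was compared directly with the siANKRD10-1 knockdown, without passing through the siNC control. The comparison used 6 of the 30 RNA-seq libraries of the series, 3 per knockdown, and all genes of their count table. Of 56303 rows in that table, 18832 had enough counts to be tested. All 6 libraries came from 5637 cells, an established human bladder carcinoma line, transfected with siRNA by a Lipofectamine lipid reagent. Each knockdown group is named for the ANKRD10 isoform it was directed against, siANKRD10-1 for the isoform ANKRD10-1 and siANKRD10-2 for the isoform ANKRD10-2. The 3 siNC libraries of the same table carried a control siRNA and are shown beside the knockdowns. The dose, the time after transfection, the siRNA used in each library and whether siRNAs were pooled were not given in the labels. The study describes its ANKRD10-2 knockdown in cells without RBPMS and its ANKRD10-1 knockdown in the parental line, while the labels name 5637 cells alone for all 9 libraries. An isoform difference and a difference in cell background therefore cannot be told apart from the labels. Nothing in the labels says that the replicates were separate cultures, so the p-values measure the spread between these libraries only, which may be technical.

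ANKRD10 encodes an ankyrin repeat protein, and its transcripts are spliced into the isoforms that the study calls ANKRD10-1 and ANKRD10-2. RBPMS is an RNA-binding protein that acts on splicing. MYC is a transcription factor that binds the E-box sequence together with MAX and drives genes of ribosome assembly, translation, nucleotide synthesis and glycolysis. The direct comparison of the knockdowns asks how the cells differ when one or the other isoform is targeted.

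Library totals were 31279282 to 32480073 counts in siANKRD10-1, 28511029 to 32141257 in siANKRD10-2 and 32329422 to 32784584 in siNC. Expression is given as normalized counts, which are counts divided by the library's scaling factor and set to the mean library size of the 6 knockdown libraries. A gene was called at an adjusted p under 0.05 in edgeR's quasi-likelihood test, and log2 fold changes are siANKRD10-2 over siANKRD10-1 with their standard error (SE) and n = 3 per group. On the leading dimension of multidimensional scaling of all 9 libraries (25.1%), siANKRD10-2 lay at 0.77 to 0.834, siANKRD10-1 at -0.473 to -0.321 and siNC at -0.55 to -0.282. On dimension 2 (14.4%), siANKRD10-1 lay at -0.604 to -0.351, siANKRD10-2 at -0.187 to 0.137 and siNC at 0.473 to 0.556. The 12 markers of urothelial carcinoma epithelium, of which UPK1B and UPK3A were too low to be tested, summed to 139840 to 150180 normalized counts in siANKRD10-1 and 104590 to 108410 in siANKRD10-2. Of 10 leukocyte markers 2 had no count in any of the 9 libraries, 3 (CD14, CD68 and CD8A) passed the filter on low counts, and the list summed to 433 to 484 normalized counts in siANKRD10-1 and 313 to 349 in siANKRD10-2. Of 9 fibroblast markers 6 passed, but not the defining DCN and PDGFRA, and of 6 endothelial markers 3 passed. The endothelial list summed to 55.9 to 74.7 normalized counts in siANKRD10-1 and 59.2 to 75.2 in siANKRD10-2, and 5 smooth muscle markers to 271 to 306 and 222 to 248. Fewer cells of a type and less RNA per cell cannot be told apart in bulk RNA.

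The total RNA of the targeted gene did not separate the knockdowns. ANKRD10, counted over all of its transcripts on chromosome 13, had normalized counts of 1546, 1443 and 1423 in siANKRD10-1, 1439, 1484 and 1485 in siANKRD10-2 and 1764, 1665 and 1809 in siNC. The 6 knockdown libraries overlapped each other and all lay below the 3 siNC libraries. Between the knockdowns the difference was 0.00 ± 0.06 (adjusted p = 0.985, edgeR). Against siNC the log2 fold change was -0.25 in siANKRD10-2 (edgeR adjusted p = 0.00122) and -0.24 in siANKRD10-1 (edgeR adjusted p = 0.0159), both set against the same siNC libraries. Gene counts do not resolve isoforms, so the depletion of either isoform cannot be read from them.

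RBPMS had normalized counts of 144, 146 and 141 in siANKRD10-1, 160.0, 159 and 156 in siANKRD10-2 and 182, 143 and 140.0 in siNC, and it did not pass the test between the knockdowns (log2 fold change 0.14 ± 0.13, edgeR adjusted p = 0.421). The knockdown groups did not overlap, and siNC spanned both. As CPM (counts scaled to a common library total), RBPMS ran from 4.46 to 4.76 in siANKRD10-1, 5.10 to 5.25 in siANKRD10-2 and 4.39 to 5.95 in siNC. In the separately counted RBPMS knockout table it ran from 40.0 to 44.9 CPM in the wild-type libraries and from 14 to 20.7 in the knockouts. A further 5 genes that were lower in both knockouts (OLFM4, CXCL6, HS6ST3, BCL11A and GPR37) reached at most 0.462 CPM in any knockdown library and at most 0.305 in any siNC library. In the knockout table they ran from 1.74 to 10.3 CPM in the wild-type libraries and reached at most 0.269 in the knockouts. None of the 5 had enough counts to be tested between the knockdowns. VIM, the intermediate filament vimentin and one of 5 genes higher in both knockouts, had normalized counts of 429.8, 453 and 415 in siANKRD10-1 and 290.3, 291 and 258 in siANKRD10-2, lower in siANKRD10-2 (log2 fold change -0.63 ± 0.09, edgeR adjusted p = 1.42e-05). GAL, the neuropeptide galanin, was low in both groups, with normalized counts of 17.6, 17.7 and 12.6 in siANKRD10-1 and 0, 3.23 and 3.8 in siANKRD10-2, and was lower in siANKRD10-2 (log2 fold change -2.68 ± 0.61, edgeR adjusted p = 0.00128). CSF3, COL6A2 and SPANXA1 did not pass. The CPM ranges of siNC, wild-type and knockout libraries were 10.4 to 11.4, 3.97 to 5.42 and 44.2 to 76 for VIM. They were 0.244 to 0.37, 0.276 to 0.47 and 1.45 to 2.38 for GAL. For CSF3 they were 8.41 to 9.77, 4.64 to 6.47 and 27.2 to 44.7. For COL6A2 they were 5.67 to 6.14, 0.244 to 0.715 and 1.61 to 5.87, and for SPANXA1 0.866 to 1.23, 0.209 to 0.715 and 1.45 to 4.87. Median log2 fold changes of single chromosomes ran from -0.03 on chromosome 8 to 0.06 on chromosome 15.

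Between the knockdowns 6968 genes were called, 37.0% of those tested, with 3425 higher in siANKRD10-2 (18.2%) and 3543 lower (18.8%). Counts of list members called between the knockdowns are to be read against these shares. Most differences were small, with a median absolute log2 fold change of 0.40 among called genes and 64.5% of them below 0.5. An absolute log2 fold change of 1 or more was reached by 514 called genes, 313 higher and 201 lower. The groups did not overlap for 46.8% of genes tested. The siNC mean lay between the knockdown means for 63.8% of called genes, beyond siANKRD10-1 for 30.4% and beyond siANKRD10-2 for 5.75%. It was nearer to siANKRD10-1 for 5150 of the 6968 called genes and nearer to siANKRD10-2 for 1818, a description only, since the genes were called on the same knockdown libraries.

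**Figure D1:**
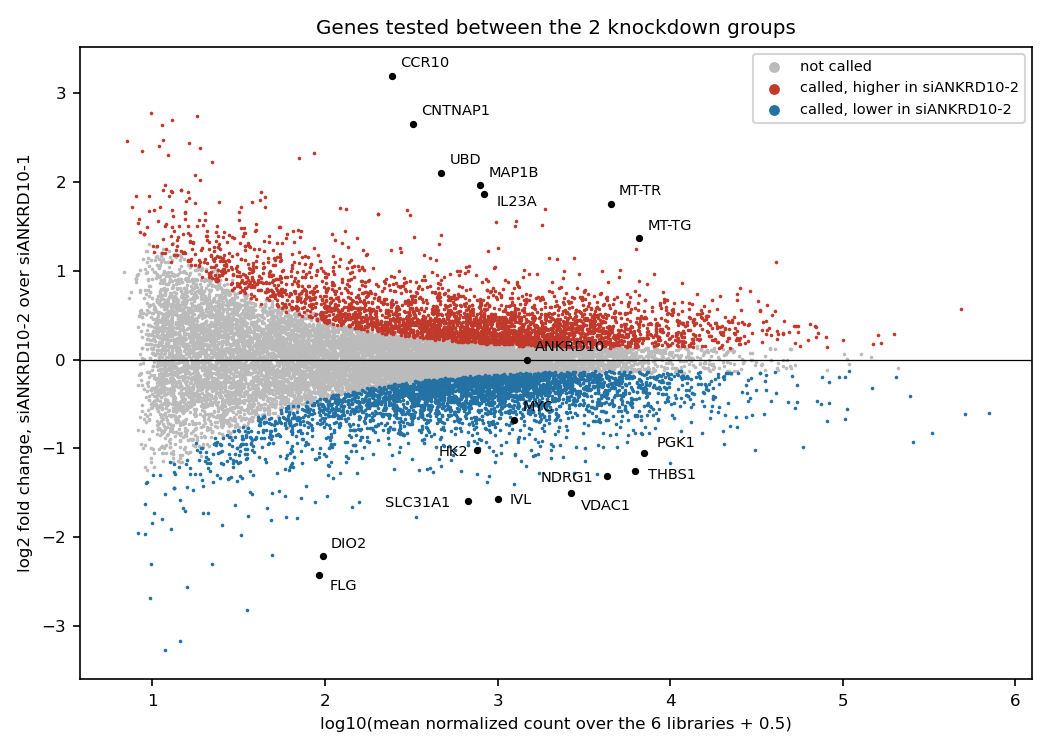
Log2 fold change of siANKRD10-2 over siANKRD10-1 (vertical axis) against the log10 of the mean normalized count plus 0.5 over the 6 libraries (horizontal axis), 1 point per gene tested, coloured by direction among the 6968 genes called and grey otherwise, with 18 of the named genes marked in black and labelled. Of these 18, CCR10 lies highest at 3.19 and FLG lowest at -2.43, and ANKRD10 lies at 0.00. The unmarked points below FLG include CA9 at -3.27 and GAL at -2.68, which have few counts.

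The 12 largest rises in siANKRD10-2, picked among called genes whose knockdown groups did not overlap, included MAP1B, NTRK2, CNTNAP1 and CCR10. MAP1B, a microtubule-associated protein of growing axons, had normalized counts of 348, 363 and 258 in siANKRD10-1, 1281, 1228 and 1266 in siANKRD10-2 and 546, 539 and 410.3 in siNC. Every siANKRD10-2 library was above every other library, and the knockdowns differed by 1.96 ± 0.09 on the log2 scale (edgeR adjusted p = 6.15e-13). NTRK2, the receptor of the neurotrophin BDNF, had normalized counts of 33.2, 17.7 and 21.3 in siANKRD10-1 and 96.4, 123 and 129 in siANKRD10-2 (log2 fold change 2.27 ± 0.24, edgeR adjusted p = 1.16e-07). CNTNAP1, an axonal adhesion protein, had normalized counts of 83.0, 112 and 71.7 in siANKRD10-1, 572, 508 and 595 in siANKRD10-2 and 186, 188 and 212 in siNC (log2 fold change 2.65 ± 0.13, edgeR adjusted p = 7.27e-13). CCR10, a chemokine receptor, had normalized counts of 43.0, 52.0 and 48.5 in siANKRD10-1 and 449, 396 and 468 in siANKRD10-2, against 98.9 to 138 in siNC (log2 fold change 3.19 ± 0.13, edgeR adjusted p = 9.61e-14). In both genes all siANKRD10-1 libraries lay below siNC and all siANKRD10-2 libraries above it. The genes lie on opposite strands of chromosome 17 (42682613 to 42699814 and 42678889 to 42683917 in the table's GRCh38 coordinates) and overlap, so their reads cannot be assigned with certainty.

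IL23A, UBD, IFI44 and MUC6 were also among the 12 largest rises. IL23A, a subunit of the cytokine interleukin 23, had normalized counts of 380.0, 301 and 398 in siANKRD10-1, 1467, 1234 and 1225 in siANKRD10-2 and 505, 633 and 655 in siNC (log2 fold change 1.86 ± 0.09, edgeR adjusted p = 1.12e-12). Its siNC libraries lay between the knockdowns without overlap. UBD, a ubiquitin-like protein induced by inflammatory cytokines, had normalized counts of 189.5, 200.2 and 143 in siANKRD10-1, 793, 760.3 and 738 in siANKRD10-2 and 173, 182 and 193 in siNC (log2 fold change 2.10 ± 0.10, edgeR adjusted p = 7.27e-13). Here siANKRD10-1 and siNC overlapped and siANKRD10-2 stood above both. UBD overlaps GABBR1 on the same strand, and GABBR1 was also higher (log2 fold change 0.87 ± 0.08, edgeR adjusted p = 9.4e-09). IFI44, an interferon-stimulated gene, had normalized counts of 68.4, 55.9 and 64.0 in siANKRD10-1 and 197, 198 and 213 in siANKRD10-2 (log2 fold change 1.69 ± 0.15, edgeR adjusted p = 9.94e-09). MUC6, a gel-forming mucin, had normalized counts of 141, 150.1 and 132 in siANKRD10-1 and 388, 374 and 594 in siANKRD10-2, with siANKRD10-2 replicate 3 well above the other siANKRD10-2 libraries (log2 fold change 1.69 ± 0.15, edgeR adjusted p = 8.18e-09). OR2I1P (2.33 ± 0.20), an olfactory receptor gene annotated as protein-coding, and MTND5P11 (1.70 ± 0.16), a nuclear copy of mitochondrial MT-ND5 that can share its reads, completed the nuclear genes of this set. OR2I1P (29553219 to 29554166) lies near UBD (29555515 to 29559925) on the other strand of chromosome 6.

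The falls included the smallest p-value of the whole comparison. VDAC1, the main channel of the outer mitochondrial membrane, had normalized counts of 3943, 3867 and 3969 in siANKRD10-1, 1356, 1412 and 1377 in siANKRD10-2 and 3321, 3312 and 3467 in siNC. All siANKRD10-2 libraries lay far below every other library, with a difference of -1.51 ± 0.05 (edgeR adjusted p = 2.61e-14). SLC31A1, the high-affinity copper importer, had normalized counts of 1084, 1037 and 925 in siANKRD10-1, 303, 348 and 359.8 in siANKRD10-2 and 1037, 1007 and 1002 in siNC (log2 fold change -1.59 ± 0.09, edgeR adjusted p = 3.48e-12). MMGT1, a subunit of the membrane protein insertion complex, had normalized counts of 485, 527 and 547 in siANKRD10-1, 157, 118 and 178 in siANKRD10-2 and 543, 511 and 490.0 in siNC (log2 fold change -1.78 ± 0.12, edgeR adjusted p = 1.25e-10). For SLC31A1 and MMGT1 siANKRD10-1 overlapped siNC, with log2 fold changes against siNC of 0.00 and 0.02.

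Other falls combined a level above siNC in siANKRD10-1 with a level below it in siANKRD10-2. IVL (involucrin), a structural protein of the cornified envelope of squamous epithelium, had normalized counts of 1534, 1484 and 1472 in siANKRD10-1, 532, 499.7 and 477 in siANKRD10-2 and 711, 739 and 774 in siNC (log2 fold change -1.57 ± 0.07, edgeR adjusted p = 1.77e-13). FLG (filaggrin), a keratin-aggregating protein of the same layer, had normalized counts of 160.2, 179.6 and 126 in siANKRD10-1, 31.8, 32.3 and 22.8 in siANKRD10-2 and 87.6, 83.5 and 58.3 in siNC (log2 fold change -2.43 ± 0.21, edgeR adjusted p = 5.04e-09). The siNC libraries of both genes lay between the knockdowns without overlap. THBS1, the matrix glycoprotein thrombospondin 1, had normalized counts of 8676, 9363 and 8409 in siANKRD10-1, 3699, 3635 and 3760 in siANKRD10-2 and 6034, 5979 and 5755 in siNC (log2 fold change -1.25 ± 0.06, edgeR adjusted p = 1.85e-13). NDRG1, a gene induced by hypoxia and cell stress, had normalized counts of 6274, 6198 and 6028 in siANKRD10-1, 2520, 2470 and 2486 in siANKRD10-2 and 4498, 4706 and 4877 in siNC (log2 fold change -1.31 ± 0.05, edgeR adjusted p = 4.58e-14). STEAP4, a metalloreductase, and ERP27, a protein of the endoplasmic reticulum, had the same order of groups (-1.66 ± 0.17 and -1.60 ± 0.18).

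For DIO2, the enzyme that activates thyroid hormone, and WNT11, a WNT ligand, siANKRD10-1 stood apart and siANKRD10-2 stayed near siNC. DIO2 had normalized counts of 172, 133 and 171 in siANKRD10-1, 21.2, 49.5 and 32.3 in siANKRD10-2 and 30.1, 26.9 and 25.3 in siNC, and the difference between the knockdowns was -2.21 ± 0.22 (edgeR adjusted p = 5.17e-08). WNT11 had normalized counts of 87.9, 79.5 and 92.1 in siANKRD10-1, 31.8, 30.2 and 27.5 in siANKRD10-2 and 29.2, 40.3 and 39.9 in siNC (log2 fold change -1.54 ± 0.22, edgeR adjusted p = 7.46e-06). In both genes the siANKRD10-2 and siNC libraries overlapped or lay side by side, with edgeR adjusted p = 0.48 for DIO2 and 0.47 for WNT11 against siNC. The remaining large falls were SERPINB11 (-1.55 ± 0.22), a serpin that overlaps SERPINB3 on the other strand, and the pseudogenes RPSAP54 (-1.78 ± 0.23) and PTMAP4 (-1.54 ± 0.17), which can share reads with their parent genes.

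**Figure D2:**
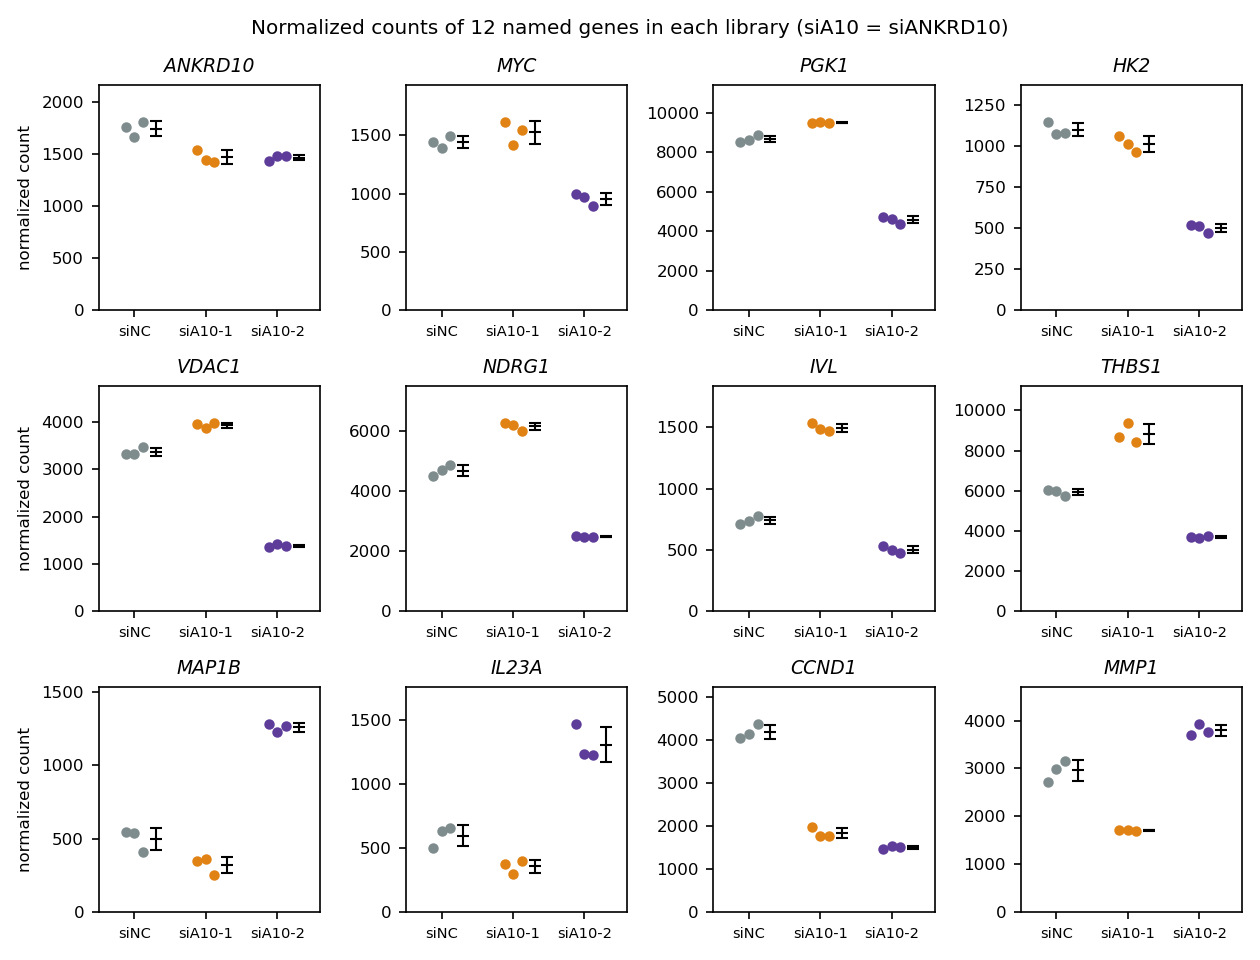
Normalized counts (vertical axes, from 0) of 12 named genes in the 3 libraries each of siNC, siANKRD10-1 and siANKRD10-2, with the mean and SD of each group as a black bar beside the points. ANKRD10 is alike in the knockdowns, PGK1, HK2, MYC and VDAC1 are low in siANKRD10-2 alone, IVL, NDRG1 and THBS1 run in opposite directions from siNC, and CCND1 is low in both knockdowns.

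MYC was lower in siANKRD10-2. Its libraries were with normalized counts of 1613, 1421 and 1546 in siANKRD10-1, 1000, 971 and 897 in siANKRD10-2 and 1446, 1395 and 1497 in siNC, without overlap between siANKRD10-2 and the other groups (log2 fold change -0.68 ± 0.07, edgeR adjusted p = 5.22e-08). MAX, the partner with which MYC binds DNA, had normalized counts of 1920, 2257 and 2277 in siANKRD10-1 and 1770, 1722 and 1788 in siANKRD10-2 (log2 fold change -0.29 ± 0.06, edgeR adjusted p = 0.00113). Of 12 tested members of the MYC, MAX and MXD network 5 were lower and 2 higher, with a median of 0.07 that turned to -0.02 with the length correction, where 1 was higher. MXD1 and MXI1, which compete with MYC for MAX, were lower as well (-0.42 ± 0.09 and -0.31 ± 0.08). MGA, a large repressive partner of MAX, was higher (0.27 ± 0.07), a call that was lost when gene length was corrected for (edgeR adjusted p = 0.137).

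The study's own panel of MYC target genes for quantitative PCR holds 7 genes, and 6 of them were lower in siANKRD10-2. PGK1, an ATP-generating enzyme of glycolysis, had normalized counts of 9493, 9520 and 9473 in siANKRD10-1, 4736, 4625 and 4388 in siANKRD10-2 and 8539, 8594 and 8850 in siNC (log2 fold change -1.05 ± 0.05, edgeR adjusted p = 9.19e-13). HK2, the hexokinase that starts glycolysis, had normalized counts of 1059, 1011 and 961 in siANKRD10-1, 518, 512 and 469.9 in siANKRD10-2 and 1144, 1072 and 1079 in siNC (log2 fold change -1.02 ± 0.07, edgeR adjusted p = 4.81e-10). In both genes siANKRD10-2 lay near 1 log2 unit below the other groups, which lay close together. DDX21, a nucleolar RNA helicase, had normalized counts of 9097, 9567 and 8377 in siANKRD10-1 and 6606, 6372 and 5908 in siANKRD10-2 (log2 fold change -0.52 ± 0.06, edgeR adjusted p = 3.32e-07). C1QBP, a mitochondrial matrix protein, had normalized counts of 2895, 2766 and 3016 in siANKRD10-1 and 2152, 2150 and 2090 in siANKRD10-2 (log2 fold change -0.44 ± 0.06, edgeR adjusted p = 1.37e-06), and its row overlaps DHX33 and RPAIN. PRMT3, which methylates a ribosomal protein, and RSL1D1, a nucleolar protein, differed by -0.42 ± 0.09 and -0.31 ± 0.05. WDR43, a factor of small ribosomal subunit assembly, had normalized counts of 5214, 4927 and 5533 in siANKRD10-1 and 5539, 5737 and 5625 in siANKRD10-2 and did not pass (log2 fold change 0.11 ± 0.05, edgeR adjusted p = 0.128). It was called higher once length was corrected for (edgeR adjusted p = 0.0269). The panel was chosen by the study for its work on this pathway and is not independent evidence of direction.

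Promoter windows of 4 panel genes are shown because the panel was read as MYC targets and 3 of the genes fell while WDR43 did not pass. Each runs from 250 bases before to 50 after a RefSeq start on GRCh38.p14, on the plus strand, and capitals mark ACGTG on either strand (CACGT when read on the other strand), the core to which hypoxia-inducible factor binds, which is also contained in the E-box CACGTG. The windows are chrX:78103998-78104297 for PGK1, chr2:74834920-74835219 for HK2, chr10:68956397-68956696 for DDX21 and chr2:28894417-28894716 for WDR43.
PGK1: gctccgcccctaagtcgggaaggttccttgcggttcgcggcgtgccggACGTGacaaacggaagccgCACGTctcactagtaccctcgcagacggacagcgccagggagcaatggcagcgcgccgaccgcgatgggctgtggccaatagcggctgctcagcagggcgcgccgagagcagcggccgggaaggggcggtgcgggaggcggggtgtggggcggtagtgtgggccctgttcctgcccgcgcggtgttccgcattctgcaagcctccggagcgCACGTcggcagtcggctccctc
HK2: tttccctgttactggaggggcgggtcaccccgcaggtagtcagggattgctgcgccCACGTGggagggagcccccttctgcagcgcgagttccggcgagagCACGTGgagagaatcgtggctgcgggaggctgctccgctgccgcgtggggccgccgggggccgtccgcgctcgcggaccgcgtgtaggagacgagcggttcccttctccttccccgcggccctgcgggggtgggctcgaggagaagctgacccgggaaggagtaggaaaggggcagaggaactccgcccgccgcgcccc
DDX21: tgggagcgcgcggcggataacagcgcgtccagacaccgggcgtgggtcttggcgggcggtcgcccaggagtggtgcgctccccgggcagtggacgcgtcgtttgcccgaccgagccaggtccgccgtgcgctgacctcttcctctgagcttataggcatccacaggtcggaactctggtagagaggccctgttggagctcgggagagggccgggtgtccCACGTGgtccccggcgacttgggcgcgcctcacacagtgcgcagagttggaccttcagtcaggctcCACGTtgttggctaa
WDR43: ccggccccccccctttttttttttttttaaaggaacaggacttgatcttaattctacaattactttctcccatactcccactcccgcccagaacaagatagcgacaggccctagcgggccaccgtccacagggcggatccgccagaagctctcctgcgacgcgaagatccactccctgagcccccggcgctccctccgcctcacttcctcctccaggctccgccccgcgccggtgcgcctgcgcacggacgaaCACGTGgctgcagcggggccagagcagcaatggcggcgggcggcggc
The HK2 window holds 2 E-boxes, the DDX21 and WDR43 windows 1 each and the PGK1 window none. PGK1 has 1 ACGTG on the strand shown and 2 on the other. HK2 and DDX21 have 2 windows each, and the 1 with an E-box is shown. The further HK2 window holds 0 E-boxes and has ACGTG at 2 places on the other strand. The further DDX21 window holds neither. PRMT3 holds 1 E-box and C1QBP none, and RSL1D1 had no entry. Over 35116 promoter windows the E-box was found in 7.26% and ACGTG on either strand in 21.4%. The E-box was in 13% of the windows of MYC targets V1, 15.2% of those of hypoxia and HIF targets, 13% of those of glycolysis genes and 5.81% of those of cytosolic ribosomal proteins. ACGTG was in 35%, 51.5%, 37% and 31.4% of them. These matches describe letters in a window and not bound sites.

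In the longer MYC lists, the counts leaned the same way without being uniform. In MYC targets V1, 99 of 200 members tested were lower and 27 were higher, with a median of -0.15 against 0.00 over all genes tested. The 49.5% of members that were lower compare with 18.8% of all genes, and the 13.5% that were higher with 18.2%. Without siANKRD10-1 replicate 1 the rises were 17. PGK1 and VDAC1 were the largest falls of the list and its only called members past an absolute log2 fold change of 1. DEK, a chromatin protein, was the largest rise with normalized counts of 18351, 18146 and 18348 in siANKRD10-1 and 31669, 30398 and 29192 in siANKRD10-2 (log2 fold change 0.73 ± 0.05, edgeR adjusted p = 2.26e-10), followed by SMARCC1 (0.55 ± 0.05), a core subunit of the SWI/SNF remodeller. In MYC targets V2, 25 of 59 members tested were lower and 9 were higher (median -0.13). Its largest falls were HK2 and PHB1, a scaffold of the inner mitochondrial membrane, with normalized counts of 6405, 6667 and 6424 in siANKRD10-1 and 3430, 2993 and 3422 in siANKRD10-2 (log2 fold change -0.99 ± 0.06, edgeR adjusted p = 1.84e-11). PLK1, the mitotic kinase, and GRWD1, a ribosome assembly factor, were its largest rises (0.48 ± 0.06 and 0.46 ± 0.07), and the rises were 5 without replicate 1 of either group.

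Against siNC, 84 of 200 members of MYC targets V1 were lower and 29 higher in siANKRD10-2 (median -0.10), where 36.3% of all genes tested were called. In siANKRD10-1, 8 were lower and 19 higher (median 0.05), where 10.6% of all genes were called. Both comparisons used the same 3 siNC libraries. The median was below that of all genes in siANKRD10-2 and above it in siANKRD10-1.

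Genes of the ribosome gave one-sided counts. Of 84 cytosolic ribosomal protein genes tested, 76 were lower in siANKRD10-2 and 0 higher in edgeR (median -0.48), with 0 higher at an unadjusted p under 0.05 and 0 higher with DESeq2, which called 74 lower. RPL35A, a protein of the large subunit, had normalized counts of 1691, 1653 and 1760 in siANKRD10-1 and 754, 826 and 868 in siANKRD10-2 (log2 fold change -1.06 ± 0.07, edgeR adjusted p = 4.66e-11), and RPS25, of the small subunit, at 5632, 5053 and 5613 in siANKRD10-1 and 2704, 3049 and 2516 in siANKRD10-2 (log2 fold change -0.98 ± 0.07, edgeR adjusted p = 1.36e-10). The groups did not overlap in either gene. These genes took 3.51 to 3.71% of all counts in siANKRD10-1, 2.72 to 2.84% in siANKRD10-2 and 3.25 to 3.52% in siNC. Many have pseudogene copies that can share their reads. Against siNC, 64 of 84 were lower in siANKRD10-2 and 1 was higher, and in siANKRD10-1 1 was lower and 4 were higher. Over all genes tested against siNC, 3542 of 18924 were lower and 3332 higher in siANKRD10-2. In siANKRD10-1 1037 of 18785 were lower and 954 higher. Nucleolar ribosome assembly factors leaned less, as 29 of 63 members tested were lower and 9 were higher (median -0.12), with NOP10, a component of pseudouridylation particles, at -0.69 ± 0.10 and POLR1A, the largest subunit of RNA polymerase I, at 0.29 ± 0.07. The rises of that list were 5 without siANKRD10-1 replicate 1, 4 without siANKRD10-2 replicate 1 and 2 without siANKRD10-2 replicate 2. Among factors of translation initiation and elongation, 26 of 46 members tested were lower and 6 were higher, led by EIF1AX (-0.80 ± 0.06) and EIF3E (-0.60 ± 0.06) among the falls and by EIF3C (0.46 ± 0.05) and the translation repressor EIF4EBP1 (0.43 ± 0.07) among the rises.

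Targets of hypoxia-inducible factor (HIF), which drives glycolysis, oxygen supply and mitophagy genes when oxygen is short, were mostly lower in siANKRD10-2. Of 25 tested, 20 were lower and 0 higher in edgeR (median -0.50), with 0 higher at an unadjusted p under 0.05 and 0 higher with DESeq2, which called 19 lower. NDRG1 was the largest fall at high counts, as given above. CA9, a carbonic anhydrase induced by hypoxia, was low in all groups, with normalized counts of 22.5, 24.5 and 15.5 in siANKRD10-1, 0, 2.15 and 3.8 in siANKRD10-2 and 6.59, 5.76 and 15.6 in siNC, and was lower in siANKRD10-2 (log2 fold change -3.27 ± 0.60, edgeR adjusted p = 0.000147). BNIP3, a mitophagy receptor, had normalized counts of 1210, 1244 and 1354 in siANKRD10-1, 644, 573 and 651 in siANKRD10-2 and 1090, 1064 and 1117 in siNC (log2 fold change -1.03 ± 0.07, edgeR adjusted p = 3.16e-10), and every siANKRD10-2 library was below every other library. PDK1, a pyruvate dehydrogenase kinase, and SLC2A1, the main glucose importer, were lower at -0.69 ± 0.08 and -0.61 ± 0.07. HIF1A itself, whose protein is mostly controlled by degradation, was lower by its RNA (log2 fold change -0.32 ± 0.05, edgeR adjusted p = 3.98e-05). VEGFA (0.10 ± 0.05), EPAS1 (-0.05 ± 0.05), STC2 (-0.02 ± 0.06), CA12 (-0.41 ± 0.31) and ANGPTL4 (1.02 ± 0.60) did not pass and make up the rest of the list.

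Glycolysis shared several of these genes. In that list 11 of 23 members tested were lower and 3 were higher (median -0.23), with PGK1 and HK2 as the largest falls and LDHA, lactate dehydrogenase A, next (-0.95 ± 0.05). SLC16A1, a lactate transporter of the cell surface, was the largest rise with normalized counts of 3218, 3304 and 3347 in siANKRD10-1, 5291, 5224 and 5500 in siANKRD10-2 and 5199, 5145 and 5392 in siNC (log2 fold change 0.70 ± 0.05, edgeR adjusted p = 7.97e-10). It was low in siANKRD10-1 while siANKRD10-2 overlapped siNC. ENO2, the neuronal enolase, was also higher (0.28 ± 0.08). Genes named in the hypoxia and the glycolysis list are counted in both.

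**Figure D3:**
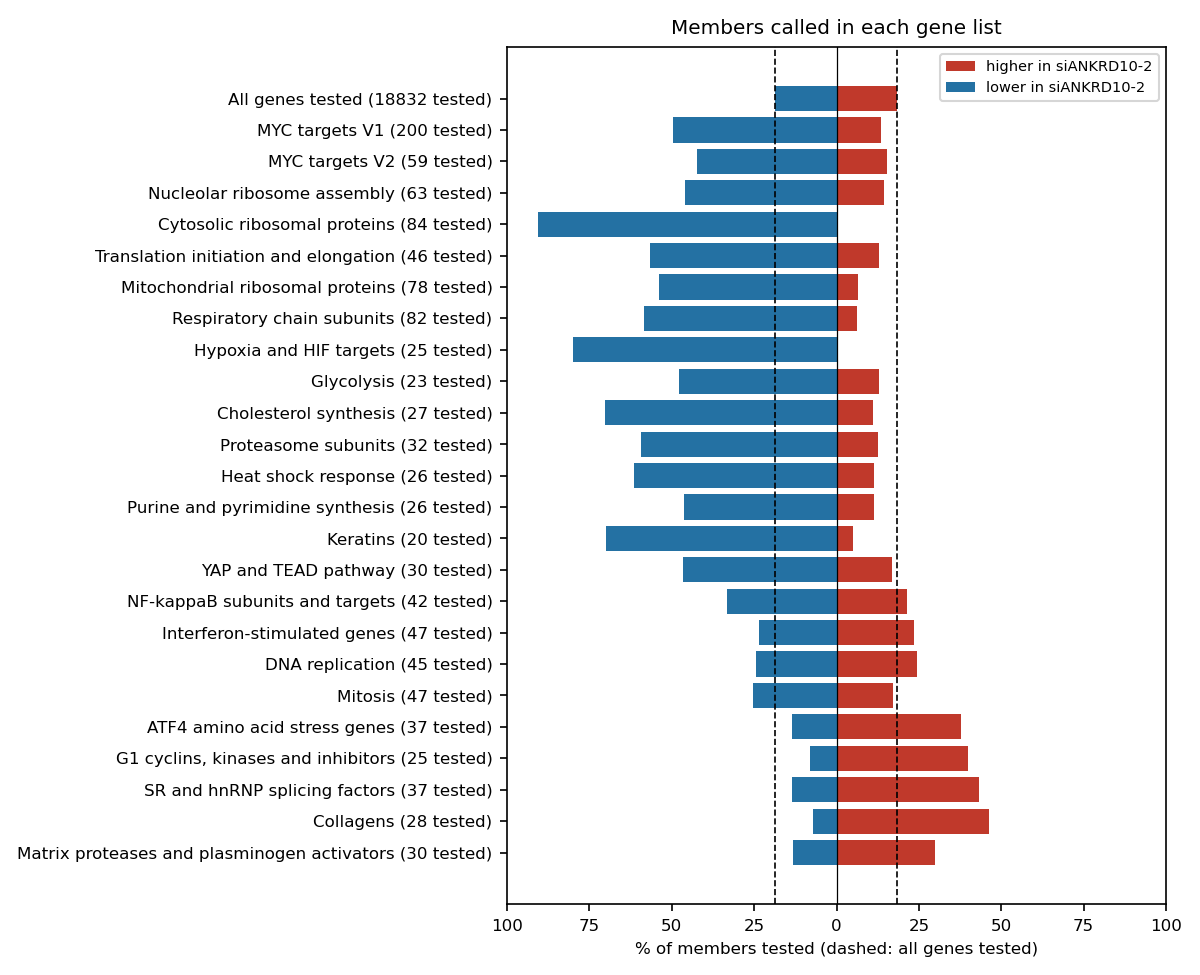
Percent of tested members called lower (blue, left) and higher (red, right) in siANKRD10-2 in 24 gene lists and over all genes tested, with the shares over all genes (18.8% lower, 18.2% higher) as dashed lines. Cytosolic ribosomal proteins and hypoxia targets have bars on the lower side only, and collagens have the longest bar on the higher side.

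Nuclear genes of mitochondrial function were mostly lower. Of respiratory chain subunits 48 of 82 members tested were lower and 5 were higher (median -0.25), and of mitochondrial ribosomal proteins 42 of 78 members tested were lower and 5 were higher (median -0.27). MRPL12, which also binds the mitochondrial RNA polymerase, had normalized counts of 2322, 2132 and 2276 in siANKRD10-1 and 1179, 1158 and 1205 in siANKRD10-2 (log2 fold change -0.93 ± 0.06, edgeR adjusted p = 6.56e-11). MRPL48 was the largest rise of its list (0.41 ± 0.06). UQCRHL (-0.97 ± 0.09), a retrocopy of a complex III subunit gene, and ATP5MF (-0.93 ± 0.07), a subunit of ATP synthase, were the largest falls of the respiratory chain, whose rises were 3 without siANKRD10-1 replicate 1 or without siANKRD10-2 replicate 2. Against siNC, 16 of 78 mitochondrial ribosomal protein genes were higher in siANKRD10-1 and 1 was lower, while in siANKRD10-2 9 were higher and 30 lower. All genes tested against siNC gave 954 higher and 1037 lower of 18785 in siANKRD10-1, and 3332 higher and 3542 lower of 18924 in siANKRD10-2.

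Genes of mitochondrial DNA did not all move together. This genome is transcribed from both strands as long precursors, from which tRNAs are cut out between the coding genes. Of 13 mRNAs 11 were lower in siANKRD10-2 and 1 was higher, with log2 fold changes from -0.92 to 0.36 and a median of -0.51. MT-ND1, a subunit of complex I, was the largest fall and MT-ND3 the rise. The mRNAs took 10.4 to 11.5% of all counts in siANKRD10-1, 6.96 to 8.24% in siANKRD10-2 and 10.6 to 12.8% in siNC. Of 22 tRNA rows 7 were higher and 10 lower, and their range from -1.37 to 1.75 was wider than that of the mRNAs.

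The tRNA rows that were higher lay on 1 strand. All 7 were among the 14 tRNAs of the plus strand, where 4 were lower, and of the 8 tRNAs of the minus strand 6 were lower and none higher. MT-TR, which lies between MT-ND3 and MT-ND4L, had normalized counts of 1822, 2179 and 2211 in siANKRD10-1, 6533, 7108 and 7294 in siANKRD10-2 and 1891, 2591 and 2308 in siNC (log2 fold change 1.75 ± 0.07, edgeR adjusted p = 4.58e-14). MT-TH, next to MT-ND4, was at 832, 913 and 939 in siANKRD10-1, 2708, 2842 and 3131 in siANKRD10-2 and 846, 1092 and 873 in siNC (log2 fold change 1.69 ± 0.07, edgeR adjusted p = 4.58e-14), and MT-TG, between MT-CO3 and MT-ND3, at 3574, 3908 and 3648 in siANKRD10-1, 9616, 9847 and 9212 in siANKRD10-2 and 3767, 3933 and 4057 in siNC (log2 fold change 1.37 ± 0.06, edgeR adjusted p = 4.58e-14). In each of them siANKRD10-1 overlapped siNC and every siANKRD10-2 library was far above both. MT-TD, between MT-TS1 and MT-CO2, was the largest fall with normalized counts of 1478, 1156 and 1130 in siANKRD10-1 and 433, 521 and 498 in siANKRD10-2 (log2 fold change -1.37 ± 0.09, edgeR adjusted p = 2e-10), and MT-TE was next (-0.95 ± 0.07). MT-RNR2, the large ribosomal RNA, was higher at 0.57 ± 0.06 (edgeR adjusted p = 5.5e-08). The libraries were made for mRNA, so the rows are not a measure of mature tRNA.

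**Figure D4:**
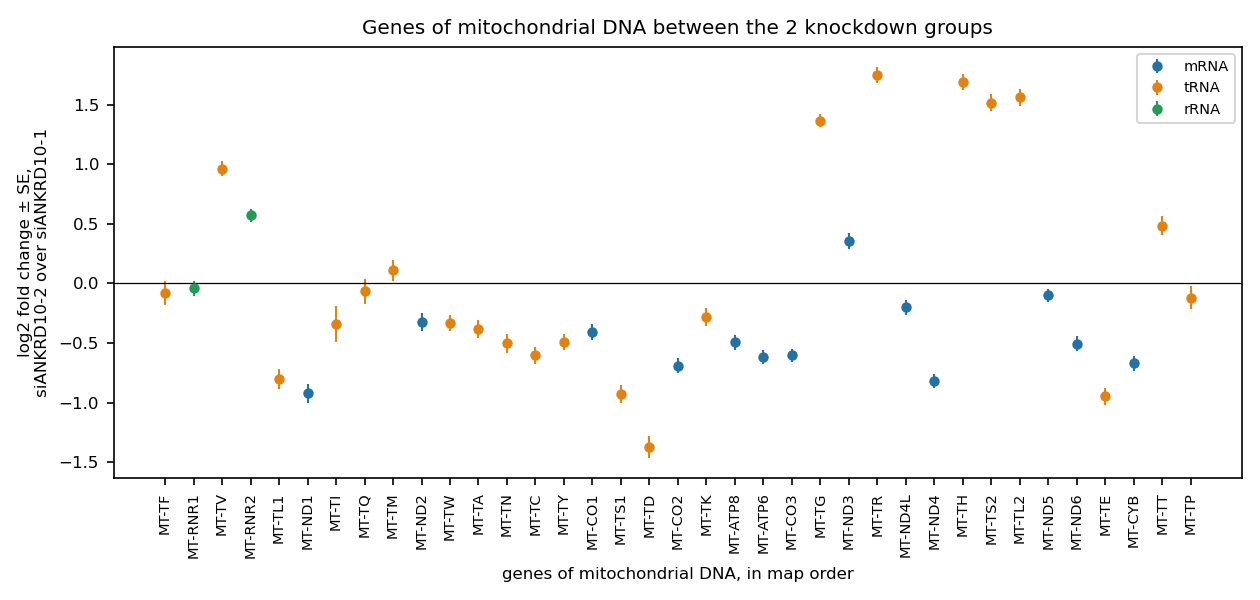
Log2 fold change of siANKRD10-2 over siANKRD10-1 with its SE (vertical axis) for the 37 genes of mitochondrial DNA in map order (horizontal axis), coloured as mRNA, tRNA or rRNA. MT-TG, MT-TR, MT-TH, MT-TS2 and MT-TL2 stand above 1, while most mRNAs lie below 0.

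Cholesterol synthesis, proteasome and heat shock lists were mostly lower too. In cholesterol synthesis, 19 of 27 members tested were lower and 3 were higher (median -0.28), with NSDHL (-0.73 ± 0.06) and IDI1 (-0.72 ± 0.07), enzymes of the later and the earlier part of the pathway, as the largest falls. Among proteasome subunits 19 of 32 members tested were lower and 4 were higher (median -0.25), with PSMA2 (-0.69 ± 0.06) and PSMA5 (-0.60 ± 0.06), subunits of the core, leading. In the heat shock response 16 of 26 members tested were lower and 3 were higher (median -0.25). Its largest fall was CHORDC1, a partner of HSP90, with normalized counts of 4156, 4309 and 4122 in siANKRD10-1 and 2621, 2502 and 2450 in siANKRD10-2 (log2 fold change -0.73 ± 0.05, edgeR adjusted p = 5.86e-10), and its largest rise was HSP90AA1, the inducible HSP90 (0.29 ± 0.05). Among purine and pyrimidine synthesis genes 12 of 26 members tested were lower and 3 were higher, shares of 46.2% and 11.5% against 18.8% and 18.2% over all genes, and PAICS, an enzyme of purine synthesis, led the falls (-0.57 ± 0.06). In the NRF2 antioxidant list 11 of 25 members tested were lower and 4 were higher (44% and 16%). PRDX1, a peroxide-removing enzyme, led these falls with normalized counts of 5223, 4868 and 5026 in siANKRD10-1 and 2324, 2674 and 2785 in siANKRD10-2 (log2 fold change -0.96 ± 0.06, edgeR adjusted p = 9.63e-11), while SLC7A11 (0.69 ± 0.11), the cystine importer, and TXNRD1 (0.46 ± 0.05), thioredoxin reductase, led the rises.

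The ATF4 list, which holds amino acid synthesis and transport genes induced by the integrated stress response, leaned upward. In it 14 of 37 members tested were higher and 5 lower (median 0.16), 37.8% and 13.5% against 18.2% and 18.8% of all genes. Without siANKRD10-2 replicate 2 the rises were 9, and without siANKRD10-2 replicate 1 the falls were 3. ASNS, asparagine synthetase, had normalized counts of 244, 249 and 231 in siANKRD10-1 and 364, 407 and 408 in siANKRD10-2 without overlap (log2 fold change 0.70 ± 0.10, edgeR adjusted p = 5.95e-06). DDIT4, an inhibitor of mTORC1 that responds to hypoxia as well as stress, was the largest fall at 8872, 8654 and 9356 in siANKRD10-1 and 5296, 5329 and 5200 in siANKRD10-2 (log2 fold change -0.76 ± 0.05, edgeR adjusted p = 1.86e-10).

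Keratins, the intermediate filaments of epithelia, were mostly lower in siANKRD10-2. Of 20 tested, 14 were lower and 1 higher (median -0.56). KRT5, the keratin of basal urothelium, had normalized counts of 20933, 20670 and 20998 in siANKRD10-1, 13301, 13176 and 13264 in siANKRD10-2 and 27042, 28065 and 27842 in siNC (log2 fold change -0.66 ± 0.05, edgeR adjusted p = 7.34e-10). The 3 groups did not overlap, with siNC highest and siANKRD10-2 lowest. KRT81, a hair keratin, was at 95.7, 70.6 and 74.7 in siANKRD10-1, 14.8, 19.4 and 18.0 in siANKRD10-2 and 153, 155 and 132 in siNC (log2 fold change -2.20 ± 0.26, edgeR adjusted p = 5.57e-07) in the same order. KRT16 was the rise (0.27 ± 0.10), a call that was lost with DESeq2, without the filter on low counts, with the replicate number as a block and without any 1 of 5 libraries. Against siNC, 15 of 20 keratins were lower in siANKRD10-2 and none higher, and in siANKRD10-1 7 were lower and 2 higher. The same comparisons over all genes gave 3542 lower and 3332 higher of 18924 in siANKRD10-2, and 1037 lower and 954 higher of 18785 in siANKRD10-1. ELF3, an epithelial transcription factor, and CLDN1, a tight junction protein, were lower at -0.79 ± 0.06 and -0.70 ± 0.06. The epithelial list as a whole had 11 lower and 9 higher of 40, 27.5% and 22.5% against 18.8% and 18.2% of all genes. Its largest rises were TJP3 (1.53 ± 0.32), which averaged 39.3 normalized counts over the 6 libraries, and F11R (0.44 ± 0.05).

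Collagens leaned the other way, with 13 of 28 tested higher and 2 lower (median 0.41). These shares of 46.4% and 7.14% compare with 18.2% and 18.8% of all genes. Fibroblast markers, 3 of which are collagens, summed to 1570 to 1593 normalized counts in siANKRD10-1 and 1770 to 1907 in siANKRD10-2 against 1347 to 1396 in siNC, and their part in the result was not tested. Of 6 fibroblast markers tested, 1 was called higher and 1, LUM, lower. The largest fold changes of collagens were in weakly expressed genes, COL24A1 (1.89 ± 0.47) and COL4A4 (1.43 ± 0.35). COL12A1, a collagen that bridges fibrils, was the largest fall with normalized counts of 30244, 33521 and 27773 in siANKRD10-1 and 17913, 17639 and 18500 in siANKRD10-2 (log2 fold change -0.76 ± 0.06, edgeR adjusted p = 1.56e-09). The mesenchymal list split evenly, with 9 of 35 higher and 9 lower, 25.7% each way. Its named falls were LUM (-3.16 ± 0.58) and the integrin ITGB3 (-1.50 ± 0.27). Both averaged fewer than 50 normalized counts over the 6 libraries, and both fold changes were larger in size than those of the named rises. TNC, the matrix protein tenascin C, had normalized counts of 8231, 8956 and 7723 in siANKRD10-1 and 15122, 14615 and 15627 in siANKRD10-2 (log2 fold change 0.86 ± 0.06, edgeR adjusted p = 1.14e-10), and CDH2 (N-cadherin) was also higher (0.63 ± 0.06). SNAI2, a repressor of epithelial genes, was the only member called among 7 tested transcription factors of epithelial-mesenchymal transition, and it was lower (log2 fold change -0.59 ± 0.07, edgeR adjusted p = 4.96e-07).

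Of matrix proteases and plasminogen activators 9 of 30 were higher and 4 lower, 30% and 13.3% against 18.2% and 18.8% of all genes. MMP1, interstitial collagenase, had normalized counts of 1720, 1720 and 1703 in siANKRD10-1, 3699, 3924 and 3767 in siANKRD10-2 and 2723, 2992 and 3160 in siNC (log2 fold change 1.15 ± 0.05, edgeR adjusted p = 6.15e-13). The siNC libraries lay between the knockdowns, and the siANKRD10-1 libraries lay lowest. MMP10 was also higher (0.72 ± 0.08), and CTSD, a lysosomal protease, was lower (-1.10 ± 0.06). Rows of the clustered protocadherins, adhesion proteins encoded in tandem, had 20 of 31 lower and 1 higher. All 20 lower rows belong to the gamma cluster, whose genes share exons, with log2 fold changes from -0.33 to -0.26, so these calls can rest on the same reads. None of the 20 was called without siANKRD10-1 replicate 1 or without siANKRD10-2 replicate 1. PCDHB10 was the rise (1.23 ± 0.14).

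Genes of the G1 phase leaned upward, with 10 of 25 higher and 2 lower (median 0.13), 40% and 8% against 18.2% and 18.8% of all genes. CDKN2C and CDKN2D, inhibitors of CDK4 and CDK6, were the largest rises (0.82 ± 0.13 and 0.64 ± 0.11). CDKN2C had normalized counts of 111, 114 and 143 in siANKRD10-1, 214, 222 and 216 in siANKRD10-2 and 122, 108 and 156 in siNC. CCND1 (cyclin D1) was at 1982, 1779 and 1785 in siANKRD10-1, 1466, 1530 and 1507 in siANKRD10-2 and 4051, 4145 and 4370 in siNC (log2 fold change -0.30 ± 0.06, edgeR adjusted p = 0.000416). Every knockdown library was far below every siNC library, with log2 fold changes against siNC of -1.18 in siANKRD10-1 and -1.48 in siANKRD10-2. DNA replication genes had 11 of 45 higher and 11 lower, and mitosis genes 8 of 47 higher and 12 lower, shares near those of all genes. Among p53 targets 8 of 28 were higher and 7 lower, 28.6% and 25% against 18.2% and 18.8% of all genes, with a median of -0.01. Without siANKRD10-2 replicate 1 the rises were 4. BBC3, the cell death protein PUMA, led the rises (1.12 ± 0.15), and ZMAT3 (-1.01 ± 0.18) and CCNG1 (-0.48 ± 0.08) led the falls.

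Of 42 NF-kappaB subunits and targets, 14 were lower (33.3%) and 9 higher (21.4%), against 18.8% and 18.2% of all genes tested. IL6, the cytokine interleukin 6, had normalized counts of 86.0, 68.7 and 52.4 in siANKRD10-1 and 25.4, 25.8 and 14.2 in siANKRD10-2 (log2 fold change -1.67 ± 0.28, edgeR adjusted p = 6.14e-05), and CFB, complement factor B, at 2139, 2249 and 2314 in siANKRD10-1, 1052, 1060 and 1072 in siANKRD10-2 and 1539, 1511 and 1537 in siNC (log2 fold change -1.07 ± 0.06, edgeR adjusted p = 5.13e-12). TNIP3, a feedback inhibitor of NF-kappaB, was higher (0.62 ± 0.10). Among 47 interferon-stimulated genes 11 were higher and 11 lower, 23.4% each way and near the shares of all genes, with 7 higher without siANKRD10-1 replicate 1. OASL, an antiviral protein, had normalized counts of 21.5, 23.5 and 8.73 in siANKRD10-1, 74.2, 66.8 and 58.9 in siANKRD10-2 and 32.0, 50.9 and 50.6 in siNC (log2 fold change 1.89 ± 0.30, edgeR adjusted p = 2.93e-05), with siNC between the knockdowns. SAMD9, a restriction factor, was at 2698, 2942 and 2552 in siANKRD10-1, 1392, 1288 and 1362 in siANKRD10-2 and 3578, 3766 and 3473 in siNC (log2 fold change -1.02 ± 0.06, edgeR adjusted p = 3.51e-11), with siNC above both. The siRNA machinery itself was also listed. Of 13 genes of RNA interference 4 were higher and 1 lower, led by TNRC6A (0.64 ± 0.07), a scaffold of silencing complexes, and DGCR8 (0.48 ± 0.05), a microRNA processing factor, but with length corrected for 2 were higher and 3 lower.

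Shares in signalling lists are read against 18.8% lower and 18.2% higher over all genes tested. In the YAP and TEAD pathway 14 of 30 members tested were lower and 5 were higher (46.7% and 16.7%, median -0.19), with TGFB2, a TGF-beta ligand, at -0.55 ± 0.07 and AMOTL1, a YAP-binding junction protein, at 0.59 ± 0.06. In the TGF-beta and BMP pathway 8 of 34 members tested were lower and 6 were higher (23.5% and 17.6%), near the shares of all genes. The ligand TGFB1 had normalized counts of 1666, 1698 and 1767 in siANKRD10-1 and 1030, 1132 and 1137 in siANKRD10-2 (log2 fold change -0.64 ± 0.06, edgeR adjusted p = 4.12e-08), and its receptor TGFBR1 was lower as well (-0.66 ± 0.06). LTBP3, which stores latent TGF-beta in the matrix, was higher (0.93 ± 0.07). Among AP-1 and immediate early genes 7 of 26 members tested were lower and 6 were higher (26.9% and 23.1%). FOSB rose without overlap, with normalized counts of 273, 269 and 289.9 in siANKRD10-1 and 591, 575 and 636 in siANKRD10-2 (log2 fold change 1.12 ± 0.09, edgeR adjusted p = 1.46e-09), and JUNB fell (-0.60 ± 0.10). Of autophagy and lysosome genes 12 of 38 members tested were lower and 5 were higher (31.6% and 13.2%), with BECN1, a starter of autophagy, at -0.69 ± 0.06 and SQSTM1, an autophagy receptor, at 0.52 ± 0.05. Among integrins and laminins 6 of 24 members tested were lower and 8 were higher (25% and 33.3%), with LAMA3, a laminin-332 chain, lower (-0.68 ± 0.07) and ITGB8, an integrin that activates TGF-beta, higher (0.72 ± 0.07).

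Splicing factors of the SR and hnRNP families had 16 of 37 higher and 5 lower (median 0.10), but 9 higher without siANKRD10-1 replicate 1 and 8 lower without siANKRD10-1 replicate 2. SRSF11 (0.54 ± 0.05) and HNRNPH1 (0.31 ± 0.05) led the rises, and HNRNPUL1 (-0.40 ± 0.05) and SRSF7 (-0.36 ± 0.05) the falls. Of 437 ZNF genes tested, mostly zinc finger repressors, 64 were higher and 38 lower, shares of 14.6% and 8.7% against 18.2% and 18.8% over all genes, and the falls were 24 without siANKRD10-1 replicate 1 and 22 without siANKRD10-2 replicate 1.

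Gene length moved with the fold changes. Protein-coding genes that averaged 50 or more normalized counts were split into 5 bins of similar size. The shortest bin (2322 genes of 177 to 3014 bases) had a median log2 fold change of -0.13 and the longest bin (2320 genes of 8298 bases or more) one of 0.09. In the shortest bin 33.8% were lower and 12.1% higher, and in the longest 15.5% were lower and 34.3% higher. Against siNC the medians of the same bins were -0.08 and 0.02 in siANKRD10-2, and 0.07 and -0.06 in siANKRD10-1. With an offset for length in each library, the medians of the direct comparison were -0.07 and -0.01. With that offset 95 MYC targets V1 were lower and 25 higher, 68 cytosolic ribosomal proteins were lower, and 20 hypoxia targets were lower, with 0 members of either list higher. Ribosomal protein genes had a median length of 2980 bases and collagens one of 8616, against 3890 over all genes tested. With the offset the median turned sign in 6 lists: the MYC, MAX and MXD network, p53 targets, MAP kinase feedback, integrins and laminins, tissue-type splicing regulators and RNA interference machinery. The part of length in the result was otherwise not tested, and RNA quality values were not given in the sources used here.

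**Figure D5:**
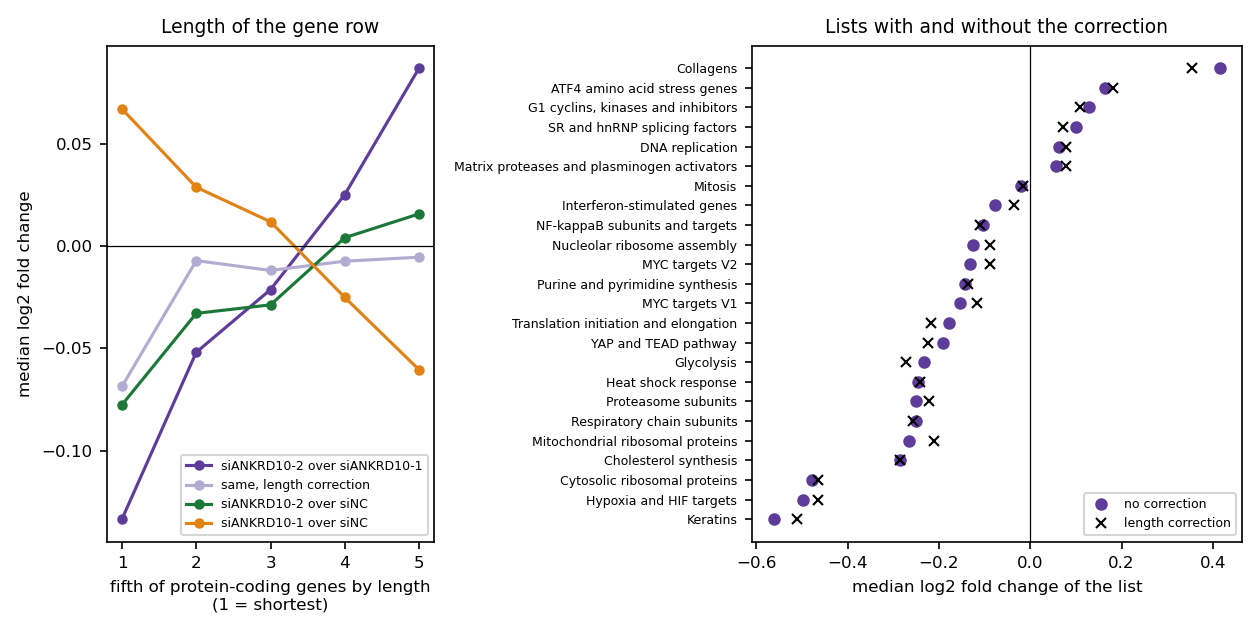
Left: median log2 fold change (vertical axis) of protein-coding genes in 5 bins by length (horizontal axis, 1 = shortest) for the direct comparison with and without the length correction and for each knockdown over siNC. Right: median log2 fold change of 24 gene lists without (circles) and with (crosses) the correction. The direct comparison rises from -0.13 to 0.09 over the bins, and the 24 lists shown keep their side of 0 under the correction.

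In a separate experiment of the series, 5637 cells overexpressed ANKRD10-2 or ANKRD10-1, with 3 libraries each and none shared with the knockdowns. The study describes the ANKRD10-1 overexpression in cells without RBPMS and the ANKRD10-2 overexpression in the parental line, while the labels name 5637 cells alone, so that here too isoform and cell background cannot be told apart, and the cells described as lacking RBPMS are on the other side of the comparison than in the knockdowns. RBPMS ran from 3.57 to 5.1 CPM with ANKRD10-1 and from 4.64 to 6.14 with ANKRD10-2. Between these overexpression groups 1455 of 20052 genes tested were called (7.26%). Of 18181 genes tested in both experiments, 6880 were called in the knockdowns and 1429 in the overexpression. Over all genes tested in each experiment, the shares called were 37.0% and 7.26%. Called in both were 755 genes, which was 11% of the knockdown calls and 52.8% of the overexpression calls. They were in opposite directions for 526 genes and in the same direction for 229. Lower in siANKRD10-2 knockdown and higher in ANKRD10-2 overexpression were 299 genes, and the reverse held for 227. MYC was higher with ANKRD10-2 than with ANKRD10-1 overexpressed (0.39, edgeR adjusted p = 0.00031), as were PGK1 (0.32, edgeR adjusted p = 0.000238), HK2 (0.25, edgeR adjusted p = 0.00331) and THBS1 (0.67, edgeR adjusted p = 6.55e-08). Of the study's 7 panel genes 3 were higher and 0 lower, and DDX21, PRMT3, RSL1D1 and WDR43 did not pass. Of the 12 largest falls IVL (0.38), VDAC1 (0.20) and ERP27 (0.68) were higher, and the others did not pass. Among the large rises, MAP1B and CCR10 did not pass, with MAP1B at 0.21 (edgeR adjusted p = 0.169) and CCR10 at -0.04 (edgeR adjusted p = 0.874), while UBD was lower (-1.26, edgeR adjusted p = 0.00021). Of hypoxia and HIF targets 14 of 25 were higher and 0 lower with ANKRD10-2 than with ANKRD10-1 overexpressed, of glycolysis genes 9 of 23 were higher and 0 lower, of MYC targets V1 21 of 200 were higher and 3 lower, of cytosolic ribosomal proteins 6 of 84 were higher and 0 lower, and of keratins 5 of 18 were higher and 1 lower. Of NF-kappaB subunits and targets 1 of 44 were higher and 20 lower. Other lists that leaned lower in siANKRD10-2 varied. Proteasome subunits had 6 of 32 higher and 0 lower, and the heat shock list 9 of 27 higher and 0 lower. MYC targets V2 had 2 of 58 higher and 1 lower, and nucleolar ribosome assembly 1 of 63 higher and 2 lower. Mitochondrial ribosomal proteins had 1 of 78 higher and 2 lower, and cholesterol synthesis 0 of 27 higher and 1 lower. Respiratory chain subunits had 0 of 80 higher and 0 lower. These list counts are to be read against 833 higher and 622 lower among all 20052 genes tested in the overexpression.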

How the data were processed

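The authors deposited raw read counts per gene for each table of the series. Per the labels' processing notes, Trimmomatic 0.36 and featureCounts of Subread 1.5.1 were used with GRCh38, and the study's methods also name HISAT2; the annotation version and the strand setting were not given in the sources used here, so overlapping genes are uncertain. The table's gene length column was used as deposited. Labels name a Seqhealth stranded mRNA kit. Genes were filtered with filterByExpr, scaled by TMM and tested with edgeR 4.0.16 in R 4.3.3 (glmQLFit and glmQLFTest, Benjamini-Hochberg over all genes tested), with DESeq2 1.42.0 as an alternative. Normalized counts were set to a mean library size, with the siNC libraries scaled on the same genes and reference library but kept out of the fit. Depth was 28511029 to 32784584 counts per library. The scripts were tested on simulated data. Replicates differed by more than sampling noise (chi-square per gene 3.92 to 14.1 in the 9 pairs). The comparison, the gene lists, written by hand or by symbol, and the alternatives were chosen with earlier results of these data known. Named genes were ANKRD10, RBPMS, MYC, MAX, the study's MYC target panel and genes of the knockout lists, the 12 largest rises and falls among called genes with a current symbol, an average of 50 or more normalized counts and groups that did not overlap, the 4 rises and 4 falls of smallest p, and up to 2 called rises and 2 called falls per list; BNIP3, PDK1, SLC2A1, LDHA, HIF1A, EPAS1, VEGFA, STC2, CA12, ANGPTL4, MXI1, CSF3, COL6A2, SPANXA1, GABBR1, MT-ND1, MT-ND3, MT-RNR2, MT-TS2 and MT-TL2 were added after their values were seen. Length was corrected by a spline offset per library, also chosen after seeing the data. Of 56303 rows, 36718 had a current symbol, and 28 were written as dates.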

Additional observations from a re-analysis of the deposited data

How the results depend on the processing

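The number of genes called was 5726 with DESeq2, 6966 with upper quartile scaling (3839 higher and 3127 lower, so that 55.1% were higher against 49.2%), 6795 without a filter on low counts, 6641 with a mean of at least 50 counts, 6982 with all 9 libraries in the fit, 7025 with the length correction and 6211 with the length and GC correction, against 6968. Also requiring an absolute log2 fold change of 1 or more left 514 genes, 313 higher and 201 lower, and 2 MYC targets V1, 0 higher and 2 lower. Leaving out 1 library at a time gave 5606 to 7101 genes, 2699 to 3425 higher and 2905 to 3676 lower. For MYC targets V1 it gave 111 to 132 members, 92 to 106 lower and 17 to 29 higher, where 17 came without siANKRD10-1 replicate 1 against 27 with all libraries. ANKRD10 ran from -0.03 to 0.03 and passed in none of these fits. With the replicate number as a block, 6351 genes and 117 MYC targets V1 were called. Same-numbered libraries had correlations of their deviations of -0.00595, -0.102 and -0.0667, so the numbers were not read as pairs, and ANKRD10 was at -0.00 with the block. No named gene that was called changed direction in any of these fits. Among named genes with a value under the setting, 15 lost their call with DESeq2, 4 with the block, 8 to 19 without 1 library, 3 with the length correction and 4 with the length and GC correction. The medians of 55 gene lists moved by more than their spread between replicates in 33 lists with upper quartile scaling, 30 with the length correction, 31 with the length and GC correction, 16 to 17 without 1 library and at most 7 otherwise. GC values were at hand for 80.6% of genes tested. At this depth genes of few counts such as CA9 and GAL carry wide errors, and counts per gene do not resolve the isoforms of ANKRD10.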
